A study of Mus musculus with 9 samples.

Results

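The 9 genes described here are known for their response to oxidative stress or to metal: heme oxygenase 1 (Hmox1), Nqo1, the 2 subunits of glutamate cysteine ligase (Gclc and Gclm), thioredoxin reductase 1 (Txnrd1), sulfiredoxin (Srxn1), the cystine carrier Slc7a11 and the metallothioneins Mt1 and Mt2. They were chosen by name, all 9 were found among the 18194 genes of the array that have a probe set with a single gene symbol, and they have 18 of its 45101 probe sets. The probe set with the highest mean over all 9 arrays stood for each gene, and its signal is given on the log2 scale, on which a difference of 1 is a doubling. Stromal cells from the bone marrow of FVB/NJ mice, sorted as negative for CD45.1 and for the erythroid antigen Ter119, were profiled on Affymetrix mouse expression arrays. The groups were wild type mice (WT), leukemic recipients at the E phase, when leukemic cells made up 1 to 5% of the marrow, and leukemic recipients at the M phase, when they made up 5 to 50%, with 3 biological replicates each. E and M stand for early and medium. The kind of leukemia, the age of the mice, any conditioning of the recipients and whether mice were pooled are not given in the sources used here. The latent and late phases were not analysed here.

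Cells under oxidative or electrophilic stress release the transcription factor NRF2 from its inhibitor KEAP1, and NRF2 with a small MAF partner then binds antioxidant response elements, where the repressor BACH1 competes with it. Its known targets make glutathione, reduce thioredoxin and quinones and break down heme. Metallothioneins are small cysteine-rich proteins that bind zinc and copper; the zinc sensor MTF1 drives their genes from metal response elements, and glucocorticoids induce them as well.

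The groups stood apart on the whole array, which bears on each value below. The mean root mean square difference between 2 arrays was 0.331 (log2) for E with WT, 1.19 for M with WT, and 0.234 to 0.366 within a group. Summed over each list on the linear scale, 14 macrophage markers ran from 1654 to 1858 in WT, 1480 to 1725 in E and 8220 to 16641 in M, and 12 granulocyte markers from 9926 to 11026, 12791 to 13960 and 93797 to 113314. The 14 mesenchymal stroma markers gave 15484 to 18307 in WT, 21318 to 23305 in E and 82403 to 98820 in M; 10 pan-leukocyte markers gave 5325 to 5954, 3899 to 4206 and 10798 to 19097; 10 endothelial markers gave 1559 to 1687, 1800 to 1943 and 2148 to 2789. The 10 erythroid markers gave 72536 to 80887, 64856 to 68604 and 42548 to 83610. Of these lists 0 markers were listed at 0 on any array, which shows no detection, since only 249 to 754 of all 45101 probe sets were at 0 on an array. A few bright genes carry such sums, and the members of a list did not all move together. In M against WT without the brightness filter, where 43.3% of all genes passed (limma), 12 granulocyte markers were higher and 0 lower, 13 mesenchymal stroma markers higher and 0 lower, and 9 pan-leukocyte markers higher and 0 lower. Of the macrophage markers 6 were higher, 1 lower and 7 did not pass, of the erythroid markers 0 were higher and 2 lower, and of the endothelial markers 7 were higher and 2 lower. With the filter 3 macrophage markers were tested (2 higher, 0 lower), and both endothelial markers tested, Eng (-0.35) and Egfl7 (-0.83), were lower. In bulk RNA, fewer cells of a type and less RNA per cell cannot be told apart. The poly-A spike-in controls, bacterial RNA usually added before labelling, averaged 8.86 ± 0.16 on the WT arrays, 8.80 ± 0.13 on the E arrays and 9.85 ± 0.30 on the M arrays (log2, SD, n = 3). Scaled to these controls, the pan-leukocyte markers did not move alike in M against WT (limma). Lcp1 (0.56), Cd52 (0.75), Tyrobp (0.48) and Cd53 (1.22) stayed higher, Laptm5 (-0.48) and Vav1 (-0.91) were lower, and the others did not pass. Of the mesenchymal stroma markers tested, Col1a2 (-0.04) did not pass on that scale and the others stayed higher.

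In the medium phase Hmox1 and Srxn1 rose several-fold, Mt1, Txnrd1 and Mt2 were higher by 1.20-fold to 1.33-fold on the deposited scale, and Nqo1, Gclc and Gclm were lower by 1.25-fold to 1.30-fold. Under 2 of 4 scalings Mt1, Txnrd1 and Mt2 turned lower, as given below. All 8 members bright enough to be tested passed an adjusted p of 0.05 in M against WT (limma, Benjamini-Hochberg over all 9097 genes tested), 5 of them higher and 3 lower, but 68.8% of all genes tested passed as well, 25.3% higher and 43.5% lower. In E against WT, 0 of 8 members passed, where 2.11% of all genes did, 0.462% higher and 1.65% lower; 4 members had an unadjusted p under 0.05, as did 1279 of the 9097 genes. Slc7a11 lay under the brightness filter, a mean over the arrays of log2 6.83, and was tested only in the fit without it. That fit called 0 of 9 members in E against WT, 8 in M against WT and 2 in M against E, where 0.852%, 43.3% and 45.5% of all 18194 genes passed.

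**Figure D1:**
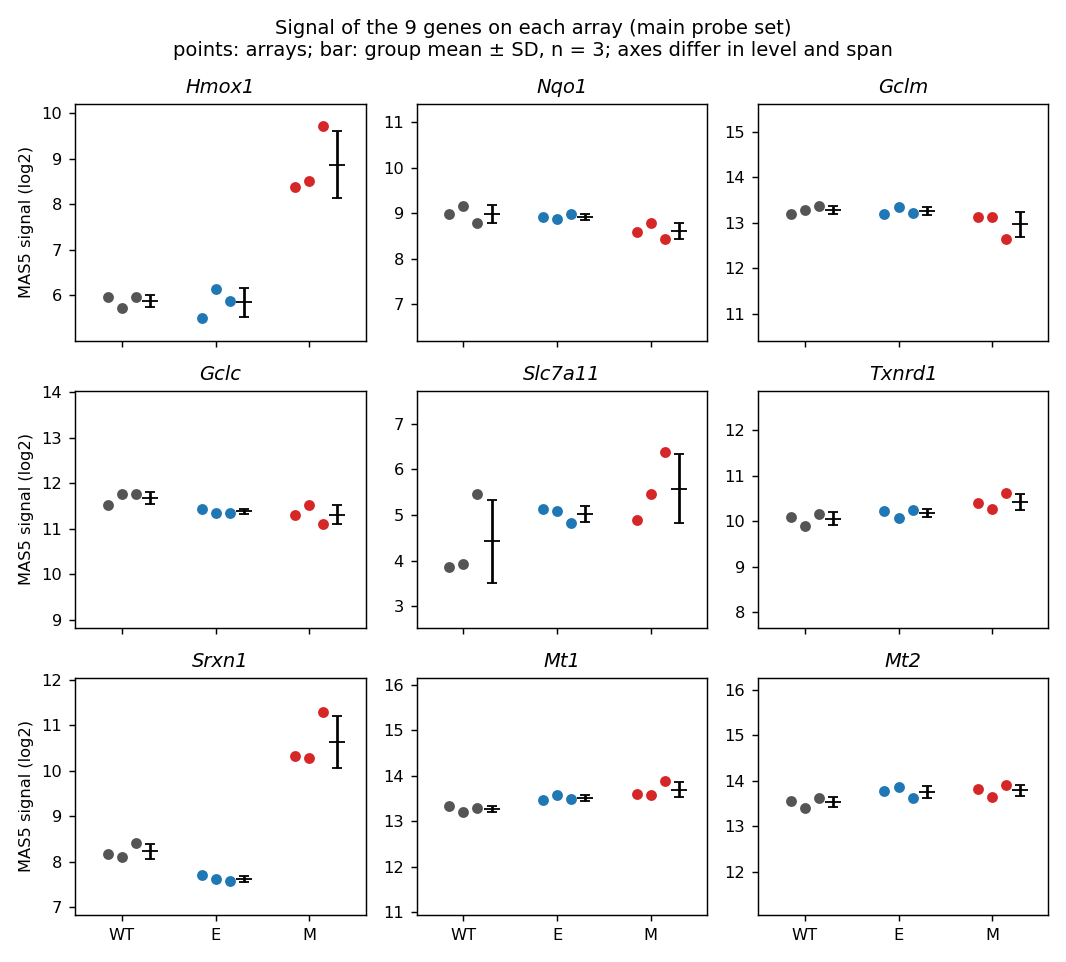
Signal of each gene on each of the 9 arrays (vertical axis, log2 MAS5 signal of the main probe set; levels and spans differ between panels), by group, with points for arrays and bars for the group mean ± SD (n = 3). Hmox1 and Srxn1 sit clearly above the other groups in M, with the third M array the highest, while the other members differ by no more than 1.16 between M and WT means.

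Hmox1 cleaves heme into biliverdin, iron and carbon monoxide. Its signal was 5.96, 5.72 and 5.95 on the WT arrays, 5.50, 6.14 and 5.88 on the E arrays, and 8.38, 8.51 and 9.71 on the M arrays. WT and E overlapped fully, all M arrays lay above both, and the third M array stood above the other M arrays. The WT mean was 5.88 ± 0.14, that of E 5.84 ± 0.32 and that of M 8.87 ± 0.73 (SD, n = 3). M exceeded WT by 2.99 (SE 0.33, adjusted p = 1.46e-05, limma), which is 7.94-fold, and E by 3.02, which is 8.13-fold (adjusted p = 1.08e-05). E differed from WT by -0.03 (adjusted p = 0.980). Hmox1 passed the filter, with a mean of 6.86, only through its M arrays, so its entry among the tested genes is no support for a difference; without the filter the adjusted p in M against WT was 1.50e-05. Of the genes tested, 95.3% had a lower difference in M against WT, so a rise of this size was found in many other genes. Without the third M array the difference from WT was 2.57. Among the M arrays that array also had the highest sums of the macrophage markers (16641 against 8992 and 8220), pan-leukocyte markers (19097 against 12109 and 10798), granulocyte markers (113314 against 105436 and 93797), mesenchymal stroma markers (98820 against 86517 and 82403) and endothelial markers (2789 against 2250 and 2148), and the lowest of the erythroid ones. The part of any of these cells in the Hmox1 signal was not tested.

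Srxn1 returns overoxidised peroxiredoxins to their working state. The 250 bases before its transcription start are shown because it moved with Hmox1, for which no window was matched; capitals mark letters that match a searched motif.
Srxn1 (chr2:152105274-152105523, plus strand): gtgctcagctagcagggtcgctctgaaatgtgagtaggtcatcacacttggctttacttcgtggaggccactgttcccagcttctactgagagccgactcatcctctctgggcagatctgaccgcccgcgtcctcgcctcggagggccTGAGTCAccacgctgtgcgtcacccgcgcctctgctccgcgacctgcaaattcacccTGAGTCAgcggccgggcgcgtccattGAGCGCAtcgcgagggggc
Capitals are matches to any of 3 motifs, searched on both strands of RefSeq windows of 300 bases (GRCm38.p6), of which 250 lie before and 50 after the start: the core of the antioxidant response element, TGACNNNGC, the core of the metal response element, TGCACNC or TGCGCNC, and the AP-1 type site TGANTCA, added after the windows had been seen. Both TGAGTCA stretches are AP-1 type matches, and 0.46% of all 32851 windows hold 2 or more of them (7.81% hold at least 1). GAGCGCA is a metal response element core on the minus strand, a match found in 25.7% of windows. The antioxidant response element core as searched, found in 12.4% of windows, lies in the stretch after the start, 29 to 37 bases from it, and is not printed. The TGAGTCA nearer the start is followed by gc and differs from that core only in a G in place of the C. The exact search did not count it. A match of letters is not evidence of binding.

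The Srxn1 signal was 8.17, 8.10 and 8.42 on the WT arrays, 7.70, 7.61 and 7.57 on the E arrays, and 10.32, 10.27 and 11.29 in M. The groups did not overlap: every E array lay below every WT array, and every M array lay above both, with the third M array again the highest. M exceeded WT by 2.40 (SE 0.23, adjusted p = 4.88e-06, limma), which is 5.28-fold, and E by 3.00 (adjusted p = 6.77e-07), which is 8.01-fold. Of the genes tested, 93.1% had a lower difference in M against WT. E lay below WT by 0.60 on the log2 scale, a 1.52-fold difference that did not pass (adjusted p = 0.259). The other 3 probe sets of Srxn1 also had all M arrays above all WT and E arrays, with M minus WT between 2.19 and 2.64. In E minus WT they read -0.59, -0.44 and -0.18, and only 1451680_at, at -0.59, had groups that did not overlap.

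The metallothionein signals moved little between the groups. The bases before both starts are shown because the genes are neighbours on chromosome 8 and their patterns over the arrays were close. The root mean square difference between their mean-centred signals was 0.100 (log2). Such closeness is not particular to the pair, since Txnrd1 (0.0980) and Jcad (0.0434) lay nearer to Mt1.
Mt1 (chr8:94178839-94179088, plus strand): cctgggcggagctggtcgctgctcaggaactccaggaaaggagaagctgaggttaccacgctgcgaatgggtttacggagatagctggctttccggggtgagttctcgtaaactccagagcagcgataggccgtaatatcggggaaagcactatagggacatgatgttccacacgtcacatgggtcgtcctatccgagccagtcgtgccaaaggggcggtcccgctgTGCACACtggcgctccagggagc
Mt2 (chr8:94172368-94172617, plus strand): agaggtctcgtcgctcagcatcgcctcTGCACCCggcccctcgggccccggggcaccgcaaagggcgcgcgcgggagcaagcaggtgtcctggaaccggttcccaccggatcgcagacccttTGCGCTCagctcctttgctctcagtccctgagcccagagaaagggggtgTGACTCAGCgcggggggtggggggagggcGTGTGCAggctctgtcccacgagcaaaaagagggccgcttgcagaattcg
The Mt2 window holds 4 metal response element cores, 3 of them in capitals here and 1 after the start, 5 to 11 bases from it; 0.517% of all windows hold 4 or more. In the same window TGACTCAGC matches both the antioxidant response element core and the AP-1 type site, which overlap. The Mt1 window holds 3 metal response element cores, of which TGCACAC is printed and the others lie 3 to 9 and 21 to 27 bases after the start; 1.97% of windows hold 3 or more. It holds 0 antioxidant response element cores.

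Mt1 read 13.33, 13.20 and 13.30 in WT, 13.47, 13.58 and 13.48 in E, and 13.61, 13.58 and 13.89 in M. All E arrays and all M arrays lay above all WT arrays, while E and M met at 13.58. On the deposited scale M exceeded WT by 0.42 (SE 0.08, adjusted p = 0.00101, limma), which is 1.33-fold, but M lay below WT by 0.21 when arrays were centred on their median and by 0.58 when they were scaled to the spike-ins. E exceeded WT by 0.24, which did not pass (adjusted p = 0.215). The second Mt1 probe set, 1451612_at, read 0.33 higher in M than in WT with overlapping groups (adjusted p = 0.151). In E minus WT that probe set read 0.12, also with overlapping groups.

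Mt2 read 13.55, 13.41 and 13.62 in WT, 13.77, 13.88 and 13.61 in E, and 13.82, 13.65 and 13.90 in M. M lay above WT on every array by a narrow margin, and E spanned nearly the range of M. M exceeded WT by 0.26 (SE 0.09, adjusted p = 0.0215), which is 1.20-fold, on the deposited scale and fell below it by 0.37 with median centring and by 0.73 with the spike-ins. The call in M against WT did not pass without WT replicate 2 (0.20, adjusted p = 0.0924) or M replicate 1 (0.24, adjusted p = 0.0509). E differed from WT by 0.22 (adjusted p = 0.280) and M from E by 0.04 (adjusted p = 0.720). The main Mt1 probe set, by its name ending _s_at, may match more than 1 transcript, so the split of signal between Mt1 and related transcripts is uncertain.

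Txnrd1 keeps cytosolic thioredoxin reduced. It read 10.10, 9.90 and 10.17 in WT, 10.21, 10.07 and 10.25 in E, and 10.40, 10.27 and 10.62 in M. All M arrays lay above all WT and E arrays, and E overlapped WT. M exceeded WT by 0.37 (SE 0.11, adjusted p = 0.00951), which is 1.30-fold, on the deposited scale, and lay below WT by 0.25 with median centring and by 0.62 with the spike-ins. Its other 2 probe sets were dimmer and read 0.65 and 0.48 higher in M than in WT without passing (adjusted p = 0.118 and 0.385).

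The genes of glutathione synthesis did not follow Hmox1 and Srxn1. Gclm is the modifier subunit and Gclc the catalytic subunit of the enzyme that makes the first step of glutathione synthesis. The Gclm sequence is shown as that of a member that was lower in M and whose window also holds an antioxidant response element core.
Gclm (chr3:122245307-122245556, plus strand): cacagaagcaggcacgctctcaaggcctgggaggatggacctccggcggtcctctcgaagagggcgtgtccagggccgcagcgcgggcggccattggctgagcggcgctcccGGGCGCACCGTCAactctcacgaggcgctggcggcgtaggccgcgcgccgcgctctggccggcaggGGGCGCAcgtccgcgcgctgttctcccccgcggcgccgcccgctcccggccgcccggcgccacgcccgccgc
Here GCACCGTCA is the antioxidant response element core on the minus strand, overlapping the metal response element core GGGCGCA in 1 run of capitals. Another GGGCGCA stands nearer the start, and 1 more such core lies after it. The windows of Nqo1, also lower in M, and of Slc7a11 held 0 matches to any searched motif. Of the Txnrd1 windows 1 held an antioxidant response element core, and the others held 0 matches. The Gclm signal was 13.20, 13.28 and 13.38 on the WT arrays, 13.20, 13.35 and 13.21 on the E arrays, and 13.13, 13.12 and 12.65 in M. All M arrays lay below all others, most of all the third. That array also had the lowest sum of the erythroid markers, 42548 against 83610 and 78274 on the other M arrays, and the part of erythroid cells was not tested. M differed from WT by -0.32 (SE 0.11, adjusted p = 0.0275), which is 1.25-fold lower, and from E by -0.29 (adjusted p = 0.0410). The other Gclm probe set, 1439050_at, differed by -0.49 in M and by -0.19 in E, again with no overlap with WT. The call in M against E was kept in 2 of the 9 fits that left out 1 array, those without M replicate 1 or 2. It was lost without any 1 of the WT arrays (-0.29 each, adjusted p = 0.0533, 0.0585 and 0.0501), without any 1 of the E arrays (-0.32, -0.24 and -0.31, adjusted p = 0.0643, 0.135 and 0.0679) and without M replicate 3 (-0.13, adjusted p = 0.0732). In M against WT the call was lost without WT replicate 2 or WT replicate 3 (-0.32 and -0.27, adjusted p = 0.0630 and 0.0943).

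Gclc read 11.52, 11.76 and 11.75 in WT, 11.44, 11.35 and 11.35 in E, and 11.31, 11.53 and 11.10 in M. Every E array lay below every WT array, while the second M array reached into the WT range. M differed from WT by -0.37 (SE 0.11, adjusted p = 0.0104), which is 1.29-fold lower, and E by -0.30, which did not pass (adjusted p = 0.235). Its second probe set, 1455959_s_at, read -0.27 in M against WT with overlapping groups (adjusted p = 0.112). In E minus WT that probe set read -0.12, also with overlapping groups.

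Slc7a11 imports the cystine from which glutathione is made. Its main probe set was dim, at 3.87, 3.93 and 5.47 in WT, 5.14, 5.09 and 4.82 in E, and 4.88, 5.47 and 6.39 in M. The groups overlapped, with the third WT array inside the M range. In the fit without the filter M differed from WT by 1.16 (SE 0.57, adjusted p = 0.128, limma) and E by 0.60 (adjusted p = 0.761). Without WT replicate 3 the difference of M from WT was 1.68 (adjusted p = 0.0352). The other probe set, 1443536_at, ran from 0.00 to 4.35 over the arrays and lay 2.24 lower in E than in WT where the main one lay higher.

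Nqo1, a quinone reductase, read 8.99, 9.17 and 8.79 in WT, 8.91, 8.87 and 8.99 in E, and 8.59, 8.80 and 8.45 in M. The highest M array just met the lowest WT array, and all M arrays lay below all E arrays. M differed from WT by -0.38 (SE 0.13, adjusted p = 0.0229), which is 1.30-fold lower, and from E by -0.31 (adjusted p = 0.0475). The first did not pass without WT replicate 1 or 2 or M replicate 1 or 3 (-0.37, -0.28, -0.36 and -0.29; adjusted p 0.0578, 0.0998, 0.0503 and 0.0518). The call in M against E was kept in 3 of the 9 fits that left out 1 array. It was lost without WT replicate 1 (-0.31, adjusted p = 0.0652), without any 1 of the E arrays (-0.32, -0.34 and -0.28, adjusted p = 0.0921, 0.0764 and 0.129) and without M replicate 1 or 3 (-0.30 and -0.23, adjusted p = 0.0928 and 0.113).

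**Figure D2:**
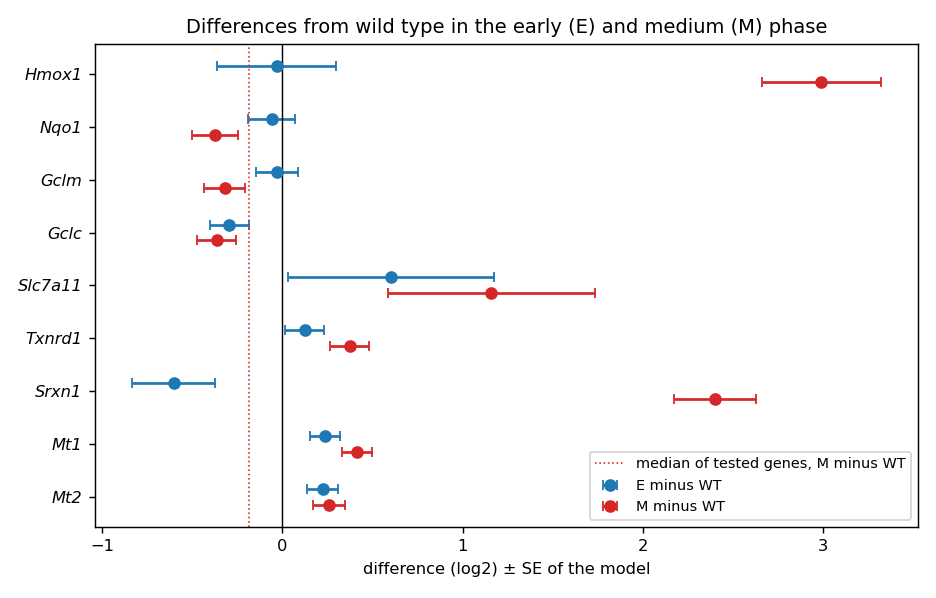
Difference of E (blue) and of M (red) from WT for each gene (horizontal axis, log2, main probe set), with bars of ± 1 SE of the limma model; the dotted line is the median of all genes tested in M minus WT, -0.19. Slc7a11 is shown from the fit without the brightness filter. Srxn1 lies on opposite sides of 0 in E (-0.60) and M (2.40), and Nqo1, Gclm and Gclc lie left of 0 in both on the deposited scale shown.

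The 2 steps of the series, WT to E and E to M, can be set side by side, though they share the E arrays. M against E called 4 of 8 members, Hmox1 and Srxn1 higher and Nqo1 and Gclm lower, where 70.0% of all genes tested passed, 26.1% higher and 43.9% lower. Txnrd1 missed the threshold in M against E (0.25, adjusted p = 0.0569), as did Mt1 (0.18, adjusted p = 0.0743) and Gclc (-0.07, adjusted p = 0.580). In E against WT the arrays of 3 of 9 members did not overlap (Srxn1 and Gclc lower, Mt1 higher), against 29.7% of all genes tested, and in M against WT those of 6 of 9, against 72.0%; both shares are near the background. In M against E, 5 of 9 did not overlap, against 73.1%. The absence of calls in E rested on 1 library, M replicate 3, which enters the shared estimate of spread. Without it Srxn1 and Gclc were lower (-0.60 and -0.30, adjusted p = 0.00498 and 0.0269) and Mt1 higher (0.24, adjusted p = 0.0103) in E against WT, with 9.19% of all genes called. These are values of the main probe sets. The second probe sets of Gclc and Mt1 read -0.12 and 0.12 in E minus WT, with overlapping groups. The replicates are biological ones per the labels.

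**Figure D3:**
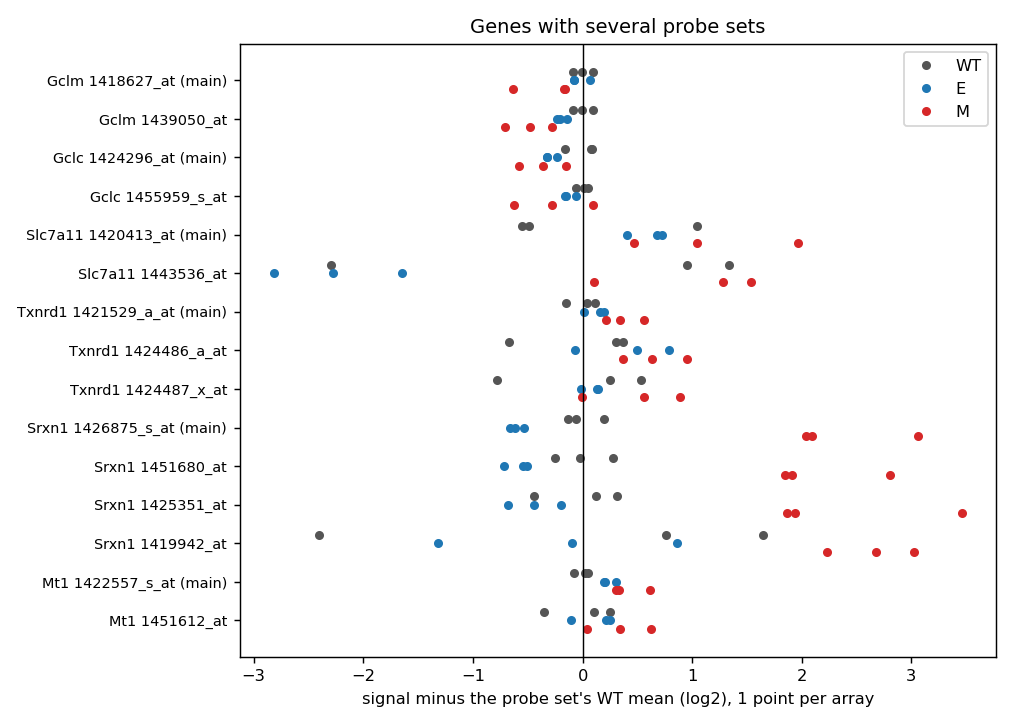
All 15 probe sets of the genes that have several (vertical axis), each as the signal minus that probe set's WT mean (horizontal axis, log2), with 1 point per array in WT, E and M. The 4 Srxn1 probe sets all place the M arrays above the WT and E arrays, and the 2 Slc7a11 probe sets place E on opposite sides of WT.

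The deposited signals are scaled so that each array has the same trimmed mean, and M is where another scale matters. The median over all 9097 tested genes was -0.19 in M minus WT and 0.01 in E minus WT. On the deposited scale the split of called members in M against WT was 5 higher and 3 lower. It was 5 and 1 with quantile normalization, 2 and 4 with median centring, and 2 and 6 with scaling to the spike-ins. The median over all tested genes moved too, to -0.28, -0.82 and -1.18 under these scalings in turn. The shift to lower calls with median centring and the spike-ins is thus not particular to the members. Hmox1 (2.00 with the spike-ins) and Srxn1 (1.41) stayed higher and passed under all 4. Nqo1, Gclm and Gclc had lower signals under all 4, down to -1.37, -1.31 and -1.36 with the spike-ins. These lie near the median of -1.18 of all tested genes on that scale. On the deposited scale 35.5%, 40.2% and 36.4% of the genes tested had a lower difference, so falls of this size were common. With quantile normalization Gclm (-0.18, adjusted p = 0.155, limma) and Gclc (-0.25, adjusted p = 0.0581) did not pass. Mt1, Mt2 and Txnrd1 changed sign, so their direction in M holds for the deposited and the quantile scale alone.

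**Figure D4:**
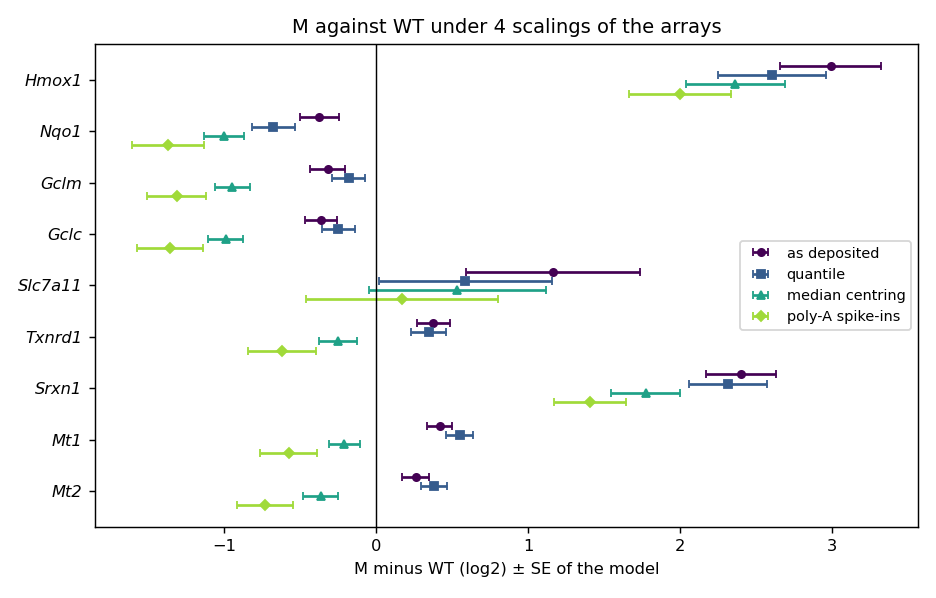
M minus WT for each gene (horizontal axis, log2, with ± 1 SE of the limma model) under 4 scalings of the arrays: as deposited, quantile normalization, median centring and scaling to the poly-A spike-ins. Hmox1 and Srxn1 stay right of 0 and Nqo1, Gclm and Gclc left of it under all 4, while Txnrd1, Mt1 and Mt2 cross from right to left under median centring and the spike-ins.

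The other genes of the pathways are given from 12 lists, whose counts are to be read against 68.8% of all tested genes called and a median of -0.19 in M against WT; with scaling to the spike-ins these were 89.6% and -1.18. The genes named in this and the next 2 paragraphs kept their sign in M under all 4 scalings, Bach1 and Nfe2l2 excepted. Some listed genes passed the brightness filter only through their M arrays, so their entry among the tested genes is no support for a difference. Examples are Gstm1 (means of 6.50 in WT and 6.25 in E), Gpx8 (6.60 and 6.31), Sesn3 (6.41 and 6.54) and Cp (5.69 and 6.04). Such genes also enter the counts of higher genes. Of 9 tested NRF2 regulators, 6 were higher and 0 lower in M against WT, with a median difference of 0.54; with the spike-ins 0 were higher and 4 lower (median -0.45, above the median of -1.18 of all tested genes on that scale). Sqstm1, which draws KEAP1 into autophagy, was higher by 1.13 on the deposited scale (adjusted p = 4.39e-05, limma). With the spike-ins it read 0.13 and did not pass (adjusted p = 0.564). The repressor Bach1 was higher by 0.93 on the deposited scale and lower by 0.06 with the spike-ins. The genes of NRF2 and KEAP1 themselves, Nfe2l2 (-0.07, adjusted p = 0.348) and Keap1 (-0.17, adjusted p = 0.563), did not pass on the deposited scale (limma). With the spike-ins they read -1.06 and -1.16, near the median of all tested genes on that scale. Of 8 tested other NRF2 targets 3 were higher and 4 lower. Mgst1 and Gstm1, glutathione transferases, rose by 3.67 and 3.30, while the glutathione transferases Gsta4 (-1.02) and Gstp1 (-0.38) were lower. Without the brightness filter 10 of 17 such targets were higher and 4 lower, with a median of 1.70. In that fit 43.3% of all genes passed, and the median over all genes was 0.11. Of 18 tested genes of glutathione synthesis and use 8 were higher and 6 lower, with Gpx8 (4.40) and Gpx3 (4.21) of the glutathione peroxidase family the clearest. With the spike-ins the counts of tested genes were 2 and 6 for the other NRF2 targets and 5 and 10 for the glutathione genes. Gclc and Gclm, not counted in that list, were lower in M as given above.

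Of 14 tested thioredoxin and peroxiredoxin genes 6 were higher and 6 lower, among them Sesn3 (2.21), a sestrin, and the mitochondrial thioredoxin Txn2 (-0.74); with the spike-ins 1 was higher and 10 lower. Among 8 tested genes of superoxide and peroxide removal 1 was higher and 6 lower, with the mitochondrial superoxide dismutase Sod2 at -0.49 and Nudt1, which clears oxidised nucleotides, at -1.17 (0 and 7 with the spike-ins). Of 9 genes of NADPH supply 4 were higher, with malic enzyme Me1 at 2.45 and Idh1 at 2.19, and 3 lower (2 and 7 with the spike-ins). All 5 tested genes of superoxide producing oxidases, the phagocyte enzyme's subunits among them, were higher, Cybb by 3.12 and Cyba by 2.08; with the spike-ins 2 of the 5 were called higher and 0 lower.

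Around Hmox1, 0 of 6 tested genes of heme breakdown and ferritin were higher and 4 were lower: biliverdin reductase Blvra differed by -0.59 and the iron exporter Slc40a1 by -0.54 (0 and 6 with the spike-ins). Around Mt1 and Mt2, 7 of 16 tested genes of zinc and copper handling were higher and 5 lower, with the zinc importer Slc39a14 at 2.83 and the copper carrier ceruloplasmin, Cp, at 5.11 (3 and 10 with the spike-ins). Mtf1, the gene of the zinc sensor, was among the lower ones (-0.82, adjusted p = 3.02e-05, limma). Around Slc7a11, 7 of 15 tested genes of the ATF4 amino acid response were higher and 4 lower, with the transcription factor Cebpb at 2.62 and the stress protein Nupr1 at 3.76 (5 and 8 with the spike-ins). Of 9 tested glucocorticoid targets 8 were higher and 0 lower in M, Cdkn1a by 3.02 and Errfi1 by 3.01; with the spike-ins 5 were higher and 4 lower. All 18 immediate early genes were higher in M, Egr1 by 4.04 and Ier3 by 3.44; with the spike-ins 13 were higher and 1 lower.

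In E against WT, 0 of 108 tested genes of the first 10 lists passed (limma), where 2.11% of all tested genes did, and 19 had an unadjusted p under 0.05, as did 1279 of all 9097. Without M replicate 3, 7 were higher and 7 lower, where 9.19% of all tested genes passed. Of 9 tested glucocorticoid targets 0 were higher and 2 lower, Sgk1 (-1.19) and Errfi1 (-0.78), and of 18 immediate early genes 0 were higher and 8 lower, among them the AP-1 subunits Jun (-1.08) and Fos (-0.94); of all tested genes 1.65% were lower. Without M replicate 3, 4 glucocorticoid targets and 14 immediate early genes were lower in E. In M against E, where 70.0% of all tested genes passed, 6 of 9 NRF2 regulators were higher and 0 lower, but with the spike-ins, where 90.3% passed with a median of -1.24, 0 were higher and 6 lower. Of 9 glucocorticoid targets 8 were higher and 0 lower there (5 and 4 with the spike-ins), and of 18 immediate early genes 17 and 0 (16 and 1).

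**Figure D5:**
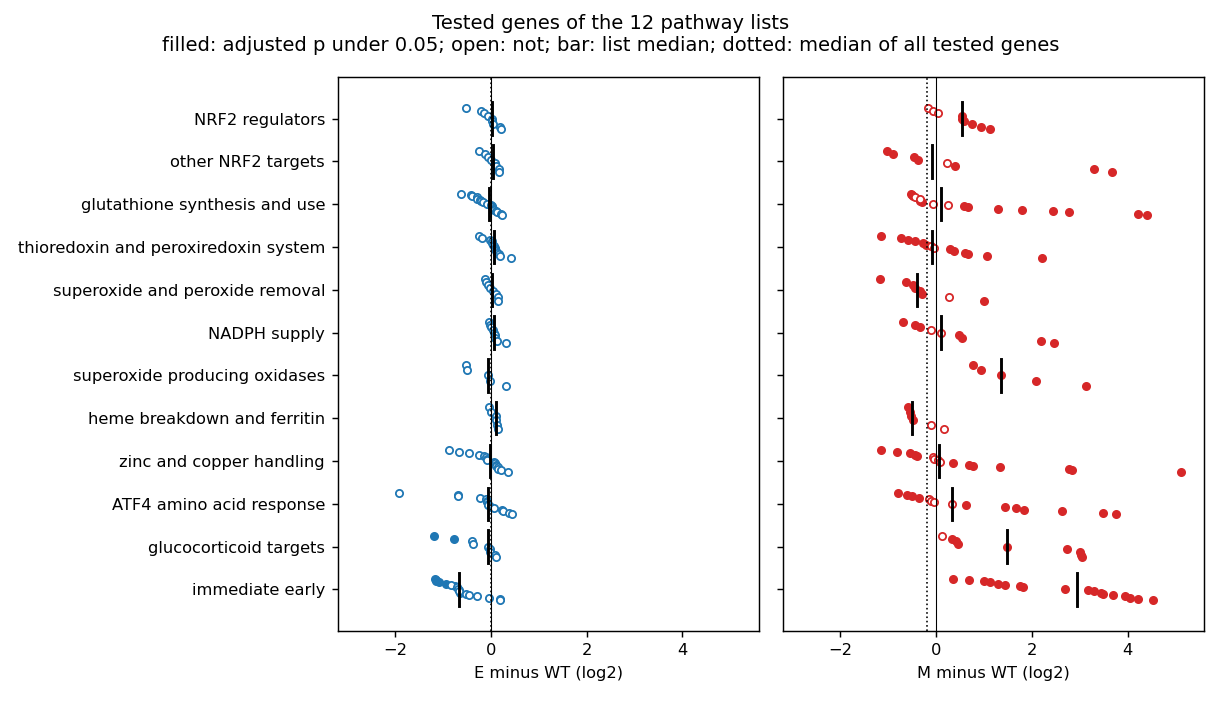
Difference from WT (horizontal axis, log2) of every tested gene of the 12 pathway lists, in E (left) and M (right); filled points passed an adjusted p of 0.05 (limma), bars are list medians and dotted lines the median of all genes tested. In E filled points appear in the last 2 lists alone, and in M most points are filled.

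By likeness of pattern, the root mean square difference between mean-centred signals over the 9 arrays, the nearest genes to Hmox1 were Boc (0.146), 2510009E07Rik and Pde8a, and those to Srxn1 were Mfge8 (0.143), Capn6 and Tmcc3. Nearest to Mt1 were Jcad (0.0434), Maoa and Lrrk1, to Mt2 Ddt (0.0675), Slc25a4 and Fbh1, and to Txnrd1 Gorasp2 (0.0405), Actg1 and Lclat1. Gclm lay nearest to Rrm2 (0.0296), Prdx2 and Snx3, Gclc to Terf2 (0.0568), Hnrnph3 and Ankhd1, and Nqo1 to Fam32a (0.0758), Casp8ap2 and Elavl1. The dim Slc7a11 had no close neighbour, with Plpp2 at 0.373, Cdyl2 and Gas2l1 next. Among the members, Txnrd1 and Mt1 differed by 0.0980, Gclc and Gclm by 0.150 and Hmox1 and Srxn1 by 0.342. All values share the same arrays and scale, so genes that move little lie near each other by construction.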

How the data were processed

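The deposited values are log2 signals made by the authors with MAS5, per the submitters' processing notes; its version is not given in the sources used here, nor is a genome build. Each array had the same trimmed mean on the linear scale, 500.0. They were used without change; a pseudocount of 16, foreseen in case the scale was linear, was not added. Of 45101 probe sets 34958 carried 1 gene symbol, 932 several and 9211 were not listed in the annotation table; the last 2 kinds were left out. The probe set with the highest mean stood for its gene. The brighter part of the genes by these means, 9097 in number (log2 6.83 and above), entered limma 3.58.1 under R 4.3.3 (3 groups in 1 fit over 9 arrays, intensity trend, Benjamini-Hochberg adjustment, called under 0.05). SE values are the model's. The number of arrays, 3 a group, limits the precision.

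The members and the gene lists were chosen with earlier results of these data known. All 9 members are named with every probe set. From each pathway list the text names up to 2 tested genes of smallest p in a comparison, and it names the 3 nearest genes of each member by pattern. Nfe2l2, Keap1 and Mtf1 are named besides, as regulators described at the outset, and Gsta4 and Gstp1 as glutathione transferases that were lower. Lists are described by counts, with no set test. Alternatives were other filters (none, or the brightest 4549 genes), pseudocounts of 1 and 64, other scalings, other estimates of spread, weighted arrays, averaging the probe sets of a gene, only the 2 groups compared, a replicate block and leaving out each array. Promoter windows came from RefSeq (GRCm38.p6), for 7 of the 9 members; Hmox1 and Gclc had none. Some genes of the lists are not analysed here. The scripts were tested on simulated data.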

Additional observations from a re-analysis of the deposited data

Results flagged for a closer look

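The test of M against E is also the test of whether the change from WT differed between the 2 phases. It passed for 4 of 8 members tested (limma), where 70.0% of all genes tested passed, a larger share. Srxn1 differed by 3.00 (adjusted p = 6.77e-07), with E at -0.60 and M at 2.40 from WT, so that its mean lay on opposite sides of WT in the 2 phases. Hmox1 differed by 3.02 (adjusted p = 1.08e-05). Nqo1 differed by -0.31 (adjusted p = 0.0475) and Gclm by -0.29 (adjusted p = 0.0410), and neither of these passed in the fit without the filter (adjusted p = 0.0669 and 0.0540).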

How the results depend on the processing

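Of 612 alternative values for single members, 519 kept both direction and side of the threshold, 41 kept the direction and lost the call, 18 gained a call and 34 changed sign. Hmox1 and Srxn1 in M against WT kept their call in every alternative in which they were tested, which leaves out the stricter filter.

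Members called in E against WT numbered 0 as reported and 3 with array weights and with only the 2 groups compared; leaving out 1 array gave 0 to 3, with 3 without M replicate 3. In M against WT the count of 8 became 5 with the stricter filter, under which only 5 members were tested; leaving out 1 array gave 5 to 8, with 5 without WT replicate 2. In M against E the count of 4 became 2 with no filter, 1 with the stricter filter, 8 with median centring, 8 with spike-in scaling, 2 with array weights and 2 with only the 2 groups compared. Leaving out 1 array gave 2 to 6 there, with 2 without WT replicate 1, E replicate 1, 2 or 3 or M replicate 3. All these counts are to be read against all genes. As reported 2.11% of all genes tested passed in E against WT, 68.8% in M against WT and 70.0% in M against E. With no filter 45.5% of all genes passed in M against E. The median of all tested genes in M against E was -0.95 with median centring and -1.24 with the spike-ins. The counts alone are no result about the members.

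Signs turned as follows. In M against WT, with median centring and spike-in scaling, Txnrd1 read -0.25 and -0.62, Mt1 -0.21 and -0.58 and Mt2 -0.37 and -0.73. In M against E, with the same 2, Txnrd1 read -0.51 and -0.80, Mt1 -0.58 and -0.87, Mt2 -0.73 and -1.02, and Slc7a11 -0.20 and -0.49 (-0.17 with quantile normalization). Mt2 read -0.0266 with array weights, -0.0324 without E replicate 3 and -0.02 without M replicate 3 (-0.0324 to 0.11). Gclc read 0.0433 with quantile normalization, 0.0155 with array weights and 0.0379 without M replicate 3 (-0.18 to 0.0379). In E against WT, Hmox1 read 0.0879 (quantile), 0.10 (median centring), 0.0266 (spike-ins) and 0.0075, 0.0062 and 0.14 without WT replicate 1, WT replicate 3 and E replicate 1 (leaving out 1 array: -0.18 to 0.14). Nqo1 read 0.0756 (median centring) and 0.0324 without WT replicate 2 (-0.16 to 0.0324). Gclm read 0.11 (median centring), 0.0291 (spike-ins) and 0.0159 without WT replicate 3 (-0.0782 to 0.0159). Slc7a11 read -0.82 as the mean of its probe sets and -2.24 on 1443536_at. Apart from the scalings, whose shift is common to an array, the cause was not tested.

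Samples share only a number: the correlation of deviations ran from -0.098 to 0.084 over 9 same-numbered pairs and from -0.090 to 0.086 over 18 others. With the replicate block the counts were 0 in E against WT, 8 in M against WT and 4 in M against E; there Txnrd1 passed (adjusted p = 0.0205) and Nqo1 did not (0.0509).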
